A study of Mus musculus with 16 samples.

Results

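The BCL-2 family of apoptosis regulators was followed in whole hearts of mice that lack ERα in cardiomyocytes. The members were Bcl2, Bcl2l1, Mcl1, Bax, Bak1, Bad, Bid, Bnip3 and Bnip3l, and every probe annotated with one of these symbols was taken, each on its own. Of the 9 listed genes, 8 have a probe, with 18 probes among the 25697 of the array. No probe was listed under Bax, which is therefore not analysed here. The 4 groups, of 4 mice each, were female cs-ERα-/-, male cs-ERα-/-, female WT and male WT, and 1 Illumina MouseRef-8 array was run per mouse. All mice were 18 weeks old, untreated, on a C57BL/6 background and carried an ERα gene with a floxed exon. The cs-ERα-/- mice also carried a Cre recombinase under the α-MHC promoter, which acts in cardiomyocytes, and WT mice were ERα flox/flox. No WT mice with Cre are named in the sources used here, so what Cre does and what losing ERα does cannot be told apart.

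BCL-2 family proteins meet at the outer mitochondrial membrane and set whether it is made permeable to cytochrome c, the step that starts the intrinsic pathway of apoptosis. Bcl2, Bcl2l1 (Bcl-xL) and Mcl1 hold the membrane closed, Bax and Bak1 form the pores, and BH3-only proteins such as Bad and Bid tip the balance by binding members of the other groups. Bnip3 and Bnip3l (Nix) are BH3-like proteins of the same membrane, induced by hypoxia and used as receptors for mitophagy, and both have been studied in the loss of cardiac myocytes.

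The 16 arrays had median signals of 17.2 to 25.6 and 11492 to 12610 probes detected at a detection p under 0.05, and pairs of arrays correlated at 0.988 to 0.995. Probes detected numbered 11945 to 12610 on female cs-ERα-/- arrays, 11882 to 12203 on male cs-ERα-/- arrays, 11794 to 11981 on female WT arrays and 11492 to 11956 on male WT arrays. Both probes of Esr1, the deleted gene, were detected on 0 of 16 arrays, in cs-ERα-/- and WT hearts alike, so they do not check the deletion. Myh6, the α-MHC gene that marks cardiomyocytes, was detected on 16 of 16 arrays by both of its probes. In whole tissue, fewer cells of a type and less RNA per cell cannot be told apart.

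The start regions of the 2 members whose probes differed most by genotype are shown because ERα can act on DNA through GGTCA, the repeated arm of its palindromic response element, or through Sp1 at GC boxes, written here as GGGCGG. Each is 250 bases before and 50 after a transcription start, 5′ to 3′ on the gene's strand (minus for both genes), from RefSeq on GRCm38.p6, and capitals mark a match to either motif on either strand (TGACC and CCGCCC are the other-strand forms).
Bcl2, chr1:106714241-106714540: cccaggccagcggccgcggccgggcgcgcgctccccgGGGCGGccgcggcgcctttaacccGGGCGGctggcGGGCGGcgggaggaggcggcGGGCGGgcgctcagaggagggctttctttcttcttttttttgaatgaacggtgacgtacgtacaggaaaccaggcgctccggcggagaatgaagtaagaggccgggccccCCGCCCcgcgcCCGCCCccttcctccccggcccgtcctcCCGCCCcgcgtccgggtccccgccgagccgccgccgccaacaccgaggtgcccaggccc
Bcl2l1 start 1, chr2:152828440-152828739: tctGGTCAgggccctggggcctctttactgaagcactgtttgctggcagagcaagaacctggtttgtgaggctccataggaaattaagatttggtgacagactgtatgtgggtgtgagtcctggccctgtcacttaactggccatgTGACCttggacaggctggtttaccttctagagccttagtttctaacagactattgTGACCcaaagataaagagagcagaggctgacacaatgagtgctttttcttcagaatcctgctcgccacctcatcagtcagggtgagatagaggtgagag
Bcl2l1 start 2, chr2:152830668-152830967: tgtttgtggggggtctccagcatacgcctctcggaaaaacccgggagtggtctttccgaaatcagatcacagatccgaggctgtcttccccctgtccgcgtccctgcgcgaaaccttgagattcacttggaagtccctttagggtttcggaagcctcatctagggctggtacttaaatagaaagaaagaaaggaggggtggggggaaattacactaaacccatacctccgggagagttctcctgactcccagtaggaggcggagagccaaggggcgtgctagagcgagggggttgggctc
Bcl2l1 start 3, chr2:152831679-152831978: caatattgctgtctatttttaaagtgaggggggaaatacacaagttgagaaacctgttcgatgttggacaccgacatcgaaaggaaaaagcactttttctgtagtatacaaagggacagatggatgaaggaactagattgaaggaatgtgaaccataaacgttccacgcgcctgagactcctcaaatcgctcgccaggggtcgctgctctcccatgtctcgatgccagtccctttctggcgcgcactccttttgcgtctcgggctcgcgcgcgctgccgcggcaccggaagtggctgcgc
The Bcl2 window holds 7 matches to GGGCGG, 4 on the gene's strand and 3 on the other, and 0 to GGTCA. The Bcl2l1 windows hold 3 matches to GGTCA, all in start 1, and 0 to GGGCGG. The full estrogen response element, a palindrome of GGTCA and TGACC that are 3 bases apart and so itself a match to GGTCA, was found in 0 of the 8 member genes with a window, GGTCA in 3 and GGGCGG in 6. Of 32851 mouse windows of this length, 40.5% hold GGTCA, 35.7% GGGCGG and 0.07% the palindrome, so either short motif is common. A member gene was counted if any of its windows held a match, so its count and these shares of windows are in unlike units. A match is a description of these letters and was not tested for binding. Bnip3l has no entry in the table of windows.

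Expression of the family was uneven at the level of detection. To be tested, a probe had to be detected (detection p under 0.05) by 3 or more arrays of some group of 4, and 12246 of all probes and 9 of the 18 family probes met this, for 5 genes. They were 3 of 8 probes of Bcl2, all 3 of Bcl2l1 and the single probes of Mcl1, Bad and Bnip3l, the last 3 detected on 16 of 16 arrays. Probes of a gene are numbered in order of mean signal. The Bcl2 probes are annotated to 2 transcript records, 5 to one and 3 to the other. The 3 tested Bcl2 probes all belong to the first record, and a probe of the second was detected on 3 of 16 arrays.

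**Figure D1:**
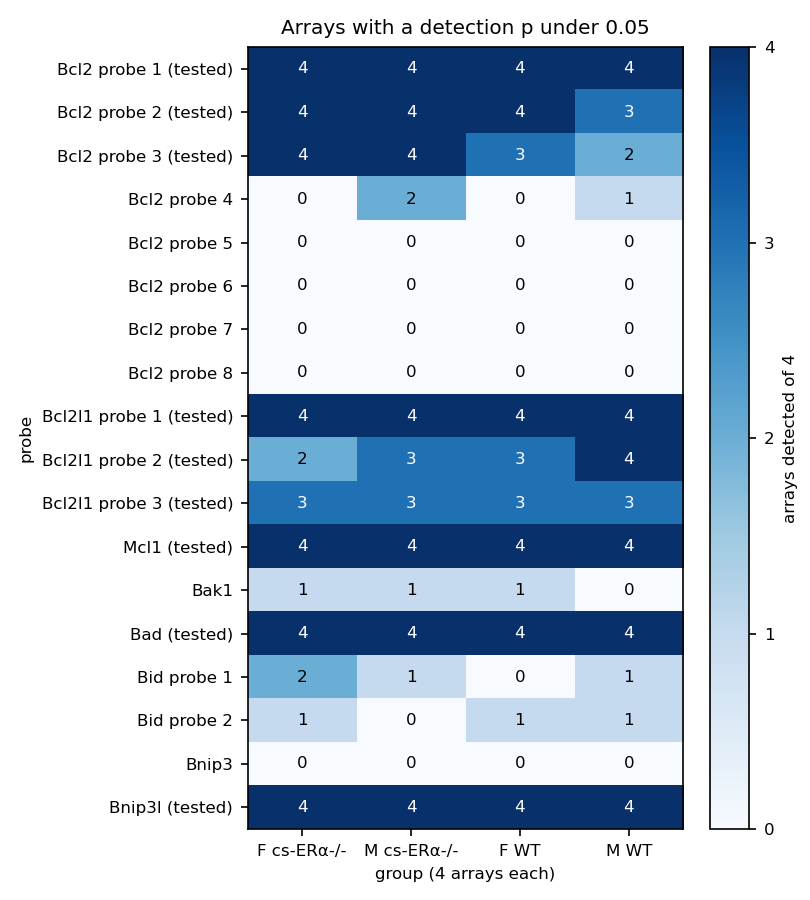
Number of arrays, of 4 in each group (columns), on which each of the 18 family probes (rows) had a detection p under 0.05. Bcl2 probe 1, Bcl2l1 probe 1, Mcl1, Bad and Bnip3l were detected on 4 of 4 arrays in every group, Bcl2 probe 3 on 4 in both cs-ERα-/- groups, 3 in female WT and 2 in male WT, and Bnip3 on 0.

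Bcl2, the founding anti-apoptotic member, was higher in cs-ERα-/- hearts. Its probes 1 and 2 rose 1.45-fold and 1.34-fold over WT, and probe 3, at 1.47-fold, did not pass the test. Of the 9 family probes tested, these 2 (22.2%) were called, that is, had a p under 0.05 after Benjamini-Hochberg adjustment in limma, both higher, where 3.74% of all tested probes were called by genotype, 2.43% higher and 1.31% lower. Both belong to 1 gene and are not separate evidence of a change in the family.

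At Bcl2 probe 1, the deposited signals were 160, 148, 125 and 108 in female cs-ERα-/- hearts and 137, 133, 113 and 189 in male cs-ERα-/- hearts, against 88.1, 81.9, 96.8 and 112 in female WT and 126, 83.3, 80.5 and 75.2 in male WT. After background correction and quantile normalization the log2 signals were 7.55, 7.22, 7.15 and 6.87 in female cs-ERα-/- hearts and 7.49, 7.53, 7.03 and 7.41 in male cs-ERα-/- hearts, against 6.79, 6.84, 6.79 and 6.62 in female WT and 6.997, 6.71, 6.75 and 6.46 in male WT. Of the 8 cs-ERα-/- mice, 7 lay above the highest WT mouse, male WT 1, and the lowest of them, female cs-ERα-/- 4, lay below it. The means were 7.28 ± 0.25 in cs-ERα-/- and 6.75 ± 0.16 in WT (SD, n = 8 each), a difference of 0.53 (standard error 0.10, 95% interval 0.33 to 0.74, adjusted p = 0.00285 from limma). It was called when any 1 array was left out.

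At Bcl2 probe 2 the log2 signals were 6.57, 6.04, 6.15 and 5.82 in female cs-ERα-/- hearts and 6.31, 6.41, 6.07 and 6.22 in male cs-ERα-/- hearts, against 5.59, 5.77, 6.13 and 6.09 in female WT and 5.84, 5.55, 5.81 and 5.43 in male WT. Female WT 3 and 4 and male WT 1 lay among the cs-ERα-/- mice, and 5 of 8 cs-ERα-/- mice lay above every WT mouse. The difference was 0.42 (standard error 0.11, 95% interval 0.19 to 0.66, adjusted p = 0.0378 from limma). This call was lost under median scaling (adjusted p = 0.0816), with no probe filter (0.0964) and in an ordinary linear model (0.0897). It held in 7 of 16 fits that left out 1 array, whose adjusted p ran from 0.0188 to 0.0886.

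At Bcl2 probe 3 the log2 signals were 5.86, 6.47, 6.27 and 5.59 in female cs-ERα-/- hearts and 6.39, 6.57, 5.91 and 6.66 in male cs-ERα-/- hearts, against 5.13, 5.63, 5.98 and 6.20 in female WT and 6.14, 5.31, 5.71 and 5.14 in male WT. Here 5 of 8 cs-ERα-/- mice lay above the highest WT mouse, female WT 4. The difference of 0.56 had a standard error of 0.17 (95% interval 0.21 to 0.91) and missed the threshold (adjusted p = 0.0704 from limma), and it passed in 4 of 16 fits that left out 1 array. The other 5 Bcl2 probes were at background: probe 4 was detected on 3 arrays, with signals of 2.58 to 31.6, and probes 5 to 8 on 0 of 16, with signals of -18.6 to 21.1 over the 4 probes.

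**Figure D2:**
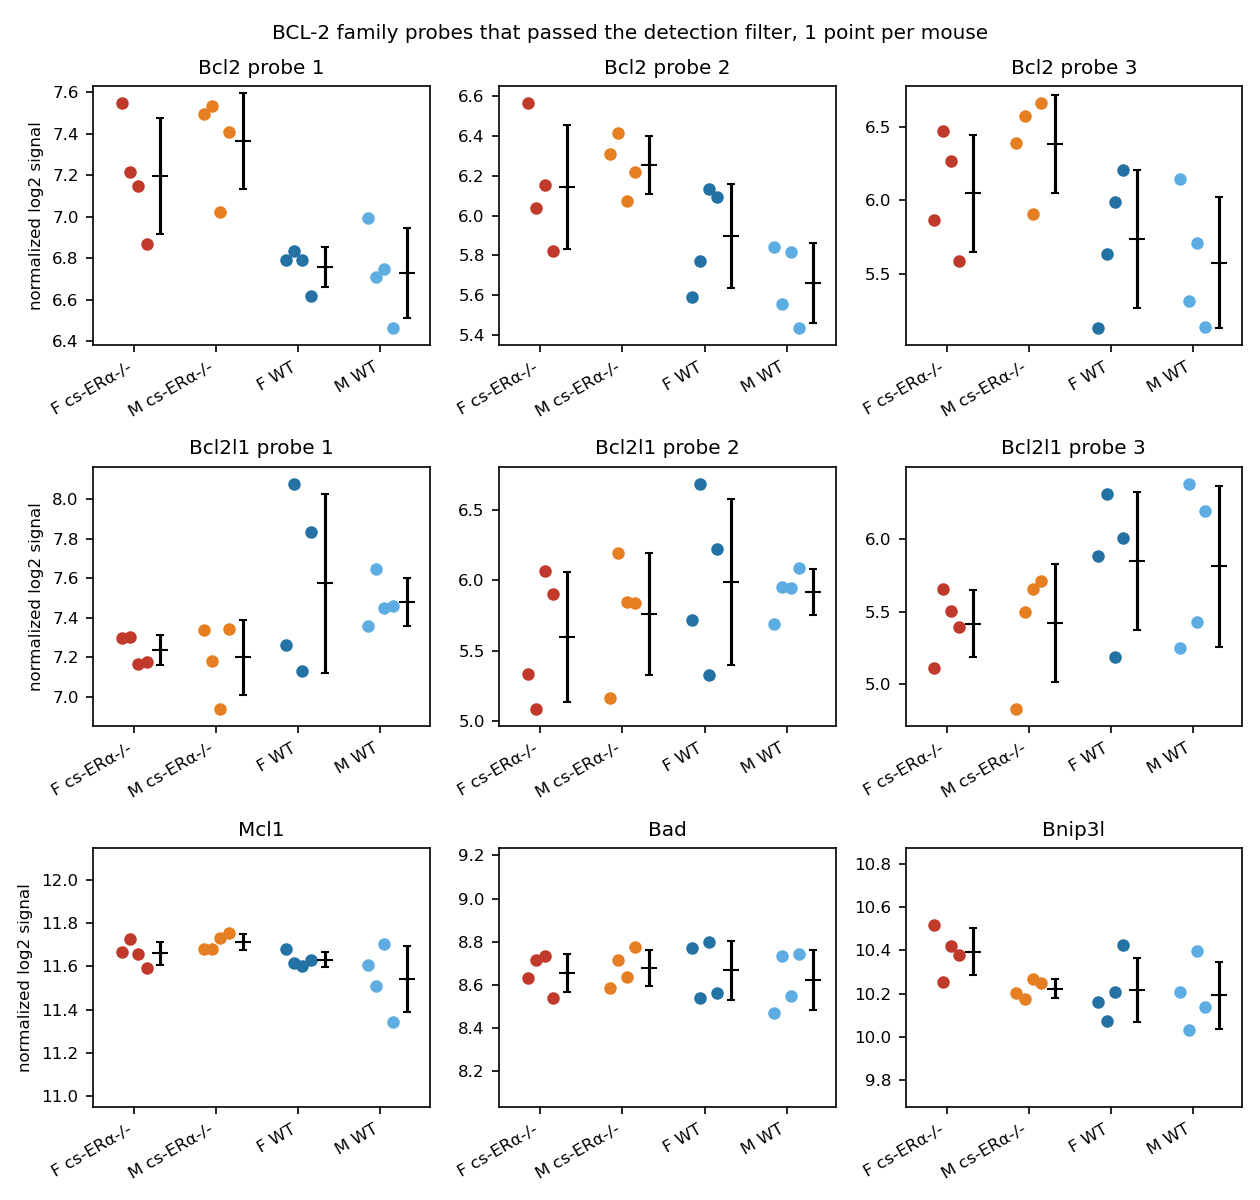
Normalized log2 signal (y axis, a separate range of at least 1.2 log2 units per panel) of the 9 tested family probes in F (female) and M (male) cs-ERα-/- and WT hearts, 1 point per mouse, with the mean and SD (n = 4) as black bars. At Bcl2 probe 1 all 4 mice of each cs-ERα-/- group lie above all 4 WT mice of the same sex, and at Bcl2l1 probe 1 female WT 2 and 4 stand above the other arrays, at 8.08 and 7.83.

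Within a sex, Bcl2 probe 1 rose in males and did not pass the test in females. The difference was 0.43 in females (standard error 0.14, 95% interval 0.14 to 0.73, adjusted p = 0.19 from limma) and 0.64 in males (standard error 0.14, 95% interval 0.34 to 0.93, adjusted p = 0.0255). Groups of a sex did not overlap in either case, which 3.23% of all tested probes showed upward in females and 3.55% in males. In males it was the 1 family probe called (11.1% of the 9), against 0.955% of all tested probes, and in females 0 family probes were called, with 3 at an unadjusted p under 0.05, against 0.71% and 10.6% of all tested probes. The male call was lost without the intensity trend (adjusted p = 0.0609) and in an ordinary linear model (0.118). With 1 array left out it held in 10 of 16 fits (0.0101 to 0.11), but those without a female array keep every male mouse. It was lost without male cs-ERα-/- 1, 2 or 4 or male WT 2, 3 or 4, so it depended on most of the male arrays.

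Probes 2 and 3 of Bcl2 gave 0.25 (adjusted p = 0.624) and 0.31 (0.695) in females and 0.59 (0.0841) and 0.81 (0.13) in males. The difference between the sexes in the genotype effect, female minus male, was -0.20 for probe 1 (95% interval -0.61 to 0.21), -0.35 for probe 2 (-0.82 to 0.12) and -0.50 for probe 3 (-1.20 to 0.21), each with an adjusted p of 0.999 from limma. These intervals hold both 0 and differences as large as the effects, so neither equal nor unequal effects in the sexes were shown. All 3 probes had the same order of group means, male cs-ERα-/-, female cs-ERα-/-, female WT and male WT from high to low. Of the neighbours in that order, female cs-ERα-/- and female WT did not overlap at probe 1, and every other pair of neighbours overlapped at every probe.

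Bcl2l1, which encodes the anti-apoptotic Bcl-xL, had lower means in cs-ERα-/- hearts at each of its 3 probes, and 0 of the 3 passed the test. At probe 1 the log2 signals were 7.30, 7.31, 7.17 and 7.18 in female cs-ERα-/- hearts and 7.34, 7.18, 6.94 and 7.34 in male cs-ERα-/- hearts, against 7.26, 8.08, 7.13 and 7.83 in female WT and 7.36, 7.65, 7.45 and 7.46 in male WT. The male groups did not overlap, as in 3.33% of all tested probes downward, whereas female WT 1 lay among the female cs-ERα-/- mice and female WT 3 below them. The difference was -0.31 (standard error 0.11, 95% interval -0.53 to -0.08, adjusted p = 0.127 from limma), and 0 of 8 cs-ERα-/- mice lay above the WT median. Without female WT 3 it was -0.38 and passed (adjusted p = 0.0373), the 1 such fit of 16.

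At Bcl2l1 probe 2 the log2 signals were 5.34, 5.09, 6.07 and 5.90 in female cs-ERα-/- hearts and 5.16, 6.20, 5.84 and 5.84 in male cs-ERα-/- hearts, against 5.72, 6.68, 5.33 and 6.22 in female WT and 5.69, 5.95, 5.95 and 6.08 in male WT. The genotypes overlapped in both sexes, and the difference was -0.27 (standard error 0.18, adjusted p = 0.454 from limma). At probe 3 the range was 4.83 to 5.71 in cs-ERα-/- hearts and 5.19 to 6.38 in WT hearts, and 0 of 8 cs-ERα-/- mice lay above the WT median. The difference was -0.41 (standard error 0.18, 95% interval -0.78 to -0.04, adjusted p = 0.223 from limma). The genotype difference of Bcl2l1 was -0.34 in females and -0.28 in males at probe 1, -0.39 in females and -0.16 in males at probe 2, and -0.43 in females and -0.39 in males at probe 3. The difference between the sexes, female minus male, had 95% intervals of -0.51 to 0.39, -0.98 to 0.51 and -0.78 to 0.69 for probes 1, 2 and 3 (adjusted p = 0.999 each from limma), so neither equal nor unequal effects were shown. Both WT groups had higher means than both cs-ERα-/- groups at all 3 probes.

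Mcl1, the short-lived anti-apoptotic protein that adult cardiac myocytes depend on, differed by little and did not pass the test. Its log2 signals were 11.66, 11.73, 11.66 and 11.59 in female cs-ERα-/- hearts and 11.68, 11.68, 11.73 and 11.75 in male cs-ERα-/- hearts, against 11.68, 11.61, 11.60 and 11.63 in female WT and 11.61, 11.51, 11.70 and 11.34 in male WT. The difference was 0.10 (standard error 0.04, 95% interval 0.01 to 0.19, adjusted p = 0.226 from limma), or 1.07-fold, and male WT 4 was the lowest of the 16 mice. It was 0.03 in females (adjusted p = 0.928) and 0.17 in males (0.248).

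Of the pore-forming members, Bak1 was at background and Bax has no listed probe. The single Bak1 probe had signals of 4.91 to 36.2 and was detected on 3 of 16 arrays, female cs-ERα-/- 3, male cs-ERα-/- 4 and female WT 3. A level near the negative control beads bounds the signal and does not show that the gene is off, and no difference was tested.

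Of the BH3-only members, Bad, which phosphorylation by survival kinases holds in the cytosol, was detected on all arrays and did not pass the test. Its log2 signals were 8.63, 8.71, 8.74 and 8.54 in female cs-ERα-/- hearts and 8.59, 8.72, 8.64 and 8.78 in male cs-ERα-/- hearts, against 8.77, 8.54, 8.80 and 8.56 in female WT and 8.47, 8.73, 8.55 and 8.74 in male WT. The groups overlapped throughout, and the difference was 0.02 (standard error 0.06, 95% interval -0.10 to 0.15, adjusted p = 0.901 from limma). Bid, which caspase-8 cleaves to link death receptors to mitochondria, was detected by either of its 2 probes on 5 of 16 arrays, with signals of 0.275 to 33.0, and was not tested.

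Bnip3l was detected on every array, and Bnip3 on none by its probe, whose signals were -9.76 to 13.7. The Bnip3l log2 signals were 10.52, 10.25, 10.42 and 10.38 in female cs-ERα-/- hearts and 10.20, 10.17, 10.27 and 10.25 in male cs-ERα-/- hearts, against 10.16, 10.07, 10.21 and 10.42 in female WT and 10.21, 10.03, 10.40 and 10.14 in male WT. Female WT 4 lay among the female cs-ERα-/- mice. The difference was 0.10 (standard error 0.06, 95% interval -0.01 to 0.22, adjusted p = 0.358 from limma), with 0.18 in females (adjusted p = 0.422) and 0.03 in males (0.925).

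**Figure D3:**
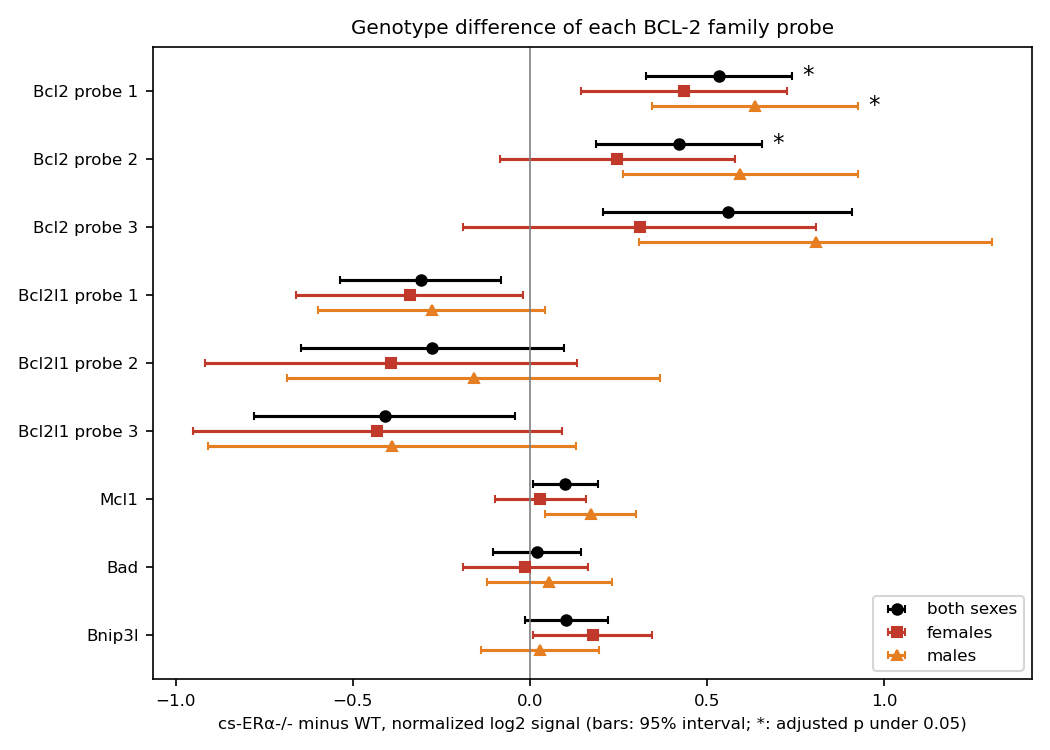
Difference in normalized log2 signal, cs-ERα-/- minus WT (x axis), of the 9 tested family probes over both sexes (circles, n = 8 against 8), in females (squares) and in males (triangles, n = 4 against 4), with 95% intervals. The 3 differences with an adjusted p under 0.05 (asterisks) are Bcl2 probe 1 over both sexes and in males, at 0.53 and 0.64, and Bcl2 probe 2 over both sexes, at 0.42.

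Over the 9 tested probes, 6 differences were positive and 3, those of Bcl2l1, were negative, with a median of 0.10 against -0.01 over all tested probes. An unadjusted p under 0.05 was found for 6 of 9 family probes by genotype, 3 of Bcl2, 2 of Bcl2l1 and that of Mcl1, where 17.6% of all tested probes had one. Probes of the same gene are not separate evidence, so this count does not weigh the family against that share. Between the sexes, female minus male, 0 family probes were called by limma and 0 had an unadjusted p under 0.05, against 1.27% and 12.9% of all tested probes. The sex differences ran from -0.09 at Bcl2 probe 3 to 0.10 at Bnip3l. For the interaction of sex and genotype 0 family probes were called and 0 had an unadjusted p under 0.05, against 0 called and 3.72% unadjusted over all tested probes.

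Within groups, probes of a gene varied together. After group means were removed, the 3 Bcl2 probes correlated at 0.44 to 0.67 with each other over the 16 arrays, and the 3 Bcl2l1 probes at 0.45 to 0.61. Bcl2 probe 1 and Bcl2l1 probe 1 correlated at 0.15, and Bcl2 and Bcl2l1 probe 3 at -0.58 to -0.31 across the Bcl2 probes. These are descriptions of arrays that share one normalization. By the same measure, the genes most like Bcl2 probe 1 were Tcf25 (0.92), Myom1 (0.89), a protein of the sarcomeric M-band, and Lrrc59 (0.87). Those most like Bcl2l1 probe 1 were Ola1 (0.88), Nudt9 (0.87) and Pdlim5 (0.87), and those most like Mcl1 were Bri3 (0.84), Fen1 (0.83) and Brk1 (0.83). For Bnip3l they were Ogt (0.89), the transferase that adds O-GlcNAc to proteins, Arglu1 (0.85) and Cep135 (0.82). None of these 12 genes was itself called by genotype. They were picked as the highest correlations among the other named genes, and such a selection by itself gives high values.

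Other genes of the mitochondrial death pathway were counted in lists. Of 9 other BCL-2 family genes tested, 0 were called by genotype in limma, with 1 at an unadjusted p under 0.05, and their median difference was 0.05, where 2.93% of the 8581 genes tested were called higher and 1.6% lower, and the median was -0.0041. At these shares, lists of this size would hold few calls or none, so a count of 0 does not set a list apart. The 1 was Bcl2l11, which encodes the BH3-only protein BIM, with means of 8.75 ± 0.27 in cs-ERα-/- and 8.97 ± 0.27 in WT (SD, n = 8 each), a difference of -0.22 (adjusted p = 0.226). Bcl2l13, a mitophagy receptor, gave -0.10 (0.372). Of 13 genes of the apoptosome, caspases and their inhibitors, 0 were called, and Casp2 gave 0.17 (0.116) and Casp9, the caspase activated on the apoptosome, -0.10 (0.352). Of 5 death receptor genes, 0 were called and 0 had an unadjusted p under 0.05, with the smallest p at Tnfrsf21 (-0.10, adjusted p = 0.589). Of 10 genes for kinases of BAD and BIM and for 14-3-3 proteins, which hold phosphorylated Bad in the cytosol, 0 were called, with 5 positive and 5 negative differences from -0.28 to 0.14 and 4 at an unadjusted p under 0.05. The 3 with the smallest p were the 14-3-3 genes Ywhab at 0.13 (adjusted p = 0.132) and Ywhag at 0.14 (0.134), and Akt2, a survival kinase, at -0.28 (0.17), with means of 6.44 ± 0.31 in cs-ERα-/- and 6.72 ± 0.18 in WT (SD, n = 8 each).

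Of 16 genes for mitophagy and autophagy partners, 1 was called, lower. One of 2 tested probes of Pink1, the kinase that marks damaged mitochondria, fell by 0.24 log2 units in cs-ERα-/- hearts, with means of 9.80 ± 0.11 in cs-ERα-/- and 10.05 ± 0.09 in WT (SD, n = 8 each, adjusted p = 0.00807 from limma). The other Pink1 probe gave -0.11 and did not pass (adjusted p = 0.127), and Phb2 of the inner membrane gave -0.09 (0.238). Of 13 genes of the mitochondrial pore and of fission or fusion, 1 was called, higher: one probe of Tspo, an outer membrane protein that macrophages also express, rose by 0.24 (adjusted p = 0.00361, and 0.0294 in males alone) and its other 2 probes did not pass (0.20 at 0.0902 and 0.15 at 0.116). Vdac2, a channel that binds Bak1, gave 0.15 (0.146). Of 15 hypoxia-responsive genes, 1 was called, lower: Pdk1, a kinase that inhibits pyruvate dehydrogenase, fell by 0.24 (adjusted p = 0.00618), and Hk2, a hexokinase that docks on mitochondria, gave -0.11 (0.132). Under median scaling these 3 calls were lost, with an adjusted p of 0.211 for Pink1, 0.421 for Tspo and 0.361 for Pdk1.

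Of 16 p53 targets tested, 2 rose and 0 fell in cs-ERα-/- hearts, with a list median of 0.10, where 2.93% of all 8581 genes tested rose and 1.6% fell. Of the 2, Phlda3 was already on the authors' list of genes differing by genotype on these same arrays. Phlda3, a p53-induced inhibitor of Akt, rose at both probes, by 0.71 (standard error 0.07, adjusted p = 1.89e-06 from limma) and 0.78 (standard error 0.07, adjusted p = 2.21e-07), and in each sex. One probe of Trp53inp1 rose by 0.45 (adjusted p = 0.0354) and the other, at 0.21, did not pass (0.103). The called probe was faint, with means of 5.53 ± 0.28 in cs-ERα-/- and 5.07 ± 0.19 in WT (SD, n = 8 each). The Bak1 probe, at background, had a mean of 5.21 over all arrays. The Trp53inp1 probe that did not pass was brighter, with means of 8.34 in cs-ERα-/- and 8.12 in WT. The Trp53inp1 call was lost under median scaling (adjusted p = 0.0604) and in an ordinary linear model (0.0732), and held in 7 of 16 fits that left out 1 array. Cdkn1a, the p53-induced cell cycle inhibitor p21, gave 0.40 and did not pass (adjusted p = 0.0787), as did Polk (0.37, 0.0512). No gene of the 8 lists was called by sex or for the interaction.

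**Figure D4:**
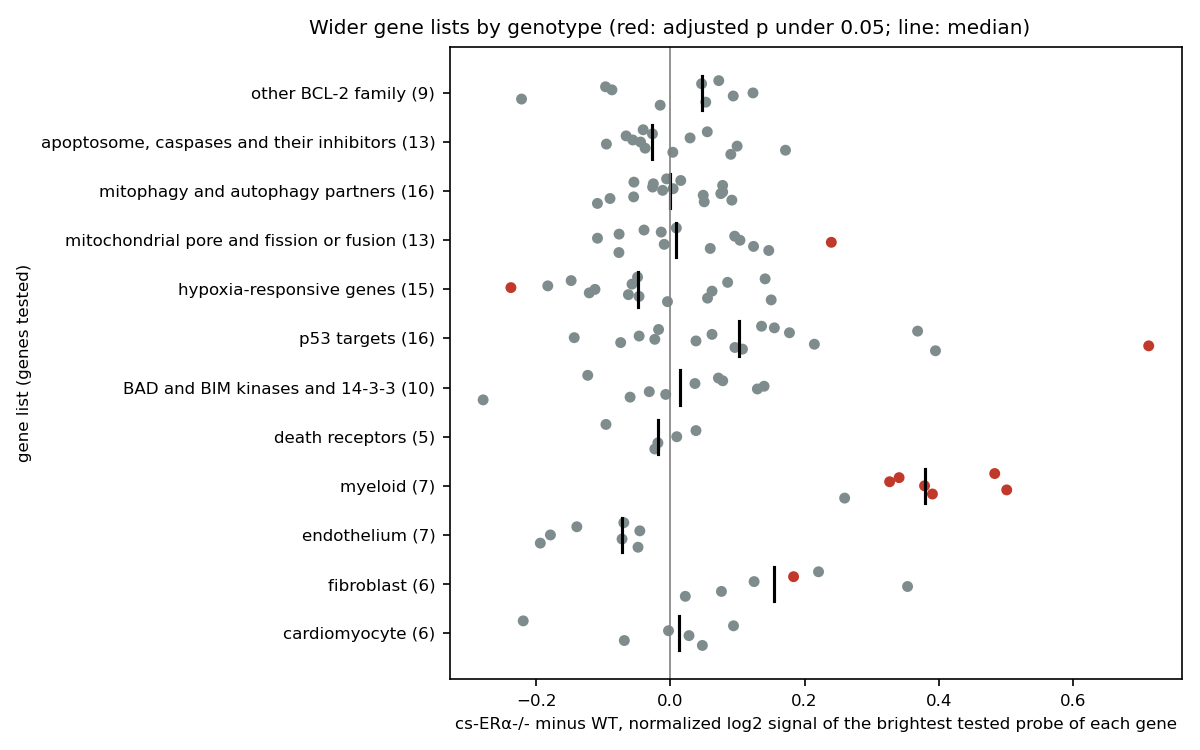
Difference in normalized log2 signal, cs-ERα-/- minus WT (x axis), of each gene of 8 pathway lists and 4 marker lists (rows), taken at its tested probe of highest mean signal, with the list median as a line and genes with an adjusted p under 0.05 in red. Phlda3 is the point at 0.71, 6 of 7 myeloid genes lie between 0.33 and 0.50 in red, and the Pink1 and Trp53inp1 calls rest on other probes than those drawn.

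Markers of other cells moved with genotype beside Bcl2. Of 7 myeloid genes tested, 6 rose and 0 fell (median 0.38), where 2.93% of all 8581 genes tested were called higher and 1.6% lower. Lyz2 gave 0.50 (adjusted p = 0.000405 from limma), Mrc1 of resident macrophages 0.38 (0.00036), and C1qa, at 0.26, was the one that did not pass (0.0719). C1qb, Lyz2, Mrc1, Fcgr3 and Laptm5 were already on the authors' list of genes differing by genotype on these same arrays, so this count is not independent of it. The summed linear signal of the 7 genes ran from 9725 to 10692 in female cs-ERα-/- hearts and 10297 to 12961 in male cs-ERα-/- hearts, against 6882 to 8642 in female WT and 8262 to 9907 in male WT. Under median scaling Lyz2, Mrc1 and Adgre1 passed and C1qb (0.0541), Fcgr3 (0.103) and Laptm5 (0.107) did not. Of the fibroblast list, 1 of 6 genes tested was called by genotype, Dcn of the matrix, which rose by 0.18 (adjusted p = 0.00753) and, at its other probe, by 0.22 (0.0389). All 6 differences were positive, with 3 at an unadjusted p under 0.05. The summed fibroblast signal was 22362 to 23872 in female and 20585 to 24611 in male cs-ERα-/- hearts, against 19210 to 20794 in female WT and 18815 to 21162 in male WT. Lum of the same list was called by sex, female minus male, at 0.56 (adjusted p = 0.000231 from limma), and not by genotype (0.22, 0.137).

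Leukocytes use Bcl2 as well, and the lymphocyte list was near background, with 1 of 5 genes with a probe tested (Cd79b, -0.31, adjusted p = 0.282 from limma) and Cd79a detected on 0 arrays. Of 6 cardiomyocyte genes 0 were called, 0 had an unadjusted p under 0.05, and they had a summed signal of 156305 to 158273 in female and 154769 to 162213 in male cs-ERα-/- hearts, against 153272 to 161715 in female WT and 151726 to 157210 in male WT. Of 7 endothelial genes 0 were called by genotype and 1 had an unadjusted p under 0.05, and all 7 differences were negative (-0.19 to -0.05, median -0.07). Of 2 adipocyte genes 0 were called. Of 3 red blood cell genes 0 were called by genotype, within a sex or for the interaction. Their differences were 0.21 to 0.65 in females (median 0.49, 3 of 3 at an unadjusted p under 0.05) and -0.38 to -0.15 in males (median -0.34, 1 of 3), and 3 of 3 had an unadjusted p under 0.05 for the interaction (adjusted p = 0.999 from limma), where 3.72% of all tested probes did. The atrial and skeletal muscle lists also hold genes of the stressed ventricle. By genotype, 1 of 2 atrial and 1 of 3 skeletal muscle genes tested were called. Nppa rose by 1.02 (adjusted p = 3.03e-06 from limma), and the other atrial gene, at 0.50, did not pass. Acta1 rose by 1.03 (0.00124), with 1.48 in females (0.00331) and 0.59 in males (0.338), and its interaction was not called (0.999). Acta1 was also called by sex, female minus male, at -0.88 (0.0115). The rest of the skeletal muscle list gave 0.39 and -0.05 and did not pass. The summed atrial signal was that of the 2 tested genes, and Nppa made up most of it. It was 28504 to 38476 in female and 29221 to 34321 in male cs-ERα-/- hearts, against 16253 to 20741 in female WT and 10070 to 19634 in male WT. The part of any of these shifts in the level of Bcl2 was not tested.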

How the data were processed

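Cardiac RNA of 16 mice was hybridised to Illumina MouseRef-8 v2 BeadChips, 1 array per mouse, and grouped by the sex and genotype of the labels. The authors averaged the beads of each probe in Genome Studio, and the deposited non-normalized signal is an intensity on a linear scale with background already subtracted, since values reach -50.0. The deposited p-value beside it is the detection p of Genome Studio, against negative control beads. The authors' normalized values are an intensity after cubic spline normalization, used as an alternative. The methods place the arrays on BeadChips that the labels do not name, so no batch term was fitted.

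Background correction, quantile normalization and the log2 step were run with the neqc function (offset 16) of the package limma 3.58.1 under R 4.3.3. Of 25697 probes, 1719 carry no single symbol, and 12246 passed the filter. The limma model had 1 mean for each group and an intensity trend in its moderation, and p-values were adjusted over all 12246 probes for each of 5 contrasts. One mouse is 1 replicate, and a p-value weighs a difference against the spread between mice of a group, moderated over all tested probes. Spread between chips could not be separated from it. Precision is limited by the number of arrays. The fit was tested on simulated data.

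The members and the gene lists (8 of pathways, 9 of markers) were chosen with earlier results of these data known. Of the list genes called here, Phlda3, Tspo, Pdk1, Nppa, C1qb, Lyz2, Mrc1, Fcgr3 and Laptm5 were on the authors' list by genotype. Named genes are all probes of the members, the list genes called in any contrast, up to 3 others per list with the smallest p, 3 genes of like pattern for 4 members, and markers beside a result. No source says that a replicate number marks a litter or a chip, and the block on it is an alternative. Other alternatives were the authors' values, no background correction, median scaling, no filter, a filter on every group, no intensity trend, an ordinary linear model, arrays of 1 sex, and leaving out each array. Start regions came from RefSeq (GRCm38.p6).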

Additional observations from a re-analysis of the deposited data

How the results depend on the processing

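The genotype call of Bcl2 probe 1 held under 8 alternatives (adjusted p = 0.000791 to 0.0264 from limma or the ordinary model) and with any 1 array left out (0.00083 to 0.00821). Family probes called by genotype numbered 1 in place of 2 under median scaling, with no probe filter and in the ordinary linear model, and 1 to 3 with 1 array left out. The call of Bcl2 probe 2 was lost without female cs-ERα-/- 1 or 3, male cs-ERα-/- 1, 2 or 4, female WT 1 or 2, or male WT 2 or 4. Bcl2 probe 3 passed without female cs-ERα-/- 4, male cs-ERα-/- 3, female WT 4 or male WT 1. In males the family count was 0 without the intensity trend and in the ordinary model, and 0 to 1 with 1 array left out, where the call of Bcl2 probe 1 was lost without male cs-ERα-/- 1, 2 or 4 or male WT 2, 3 or 4. A filter met within both WT groups, chosen after seeing the data, kept the count at 2.

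Over all probes, median scaling gave 131 calls by genotype in place of 458 (77.1% of them higher, against 65.1%), 79 by sex in place of 155, 46 in males in place of 117 and 31 in females in place of 87. Without the intensity trend 56 were called in males and 32 in females, and the ordinary model gave 80 by sex, 38 in males and 26 in females. With 1 array left out the counts were 341 to 459 by genotype, 108 to 210 by sex, 54 to 128 in males, 35 to 95 in females and 0 for the interaction. The cause of these shifts was not tested. The replicate block gave 537 calls by genotype and 2 of the family. After group means were removed, same-numbered arrays of different groups correlated at -0.107 to 0.204 (median 0.058, 24 pairs). Differently numbered arrays of different groups correlated at -0.269 to 0.149 (median -0.0077, 72 pairs). Among arrays of other groups, 9 of the 16 arrays correlated best with one of their own number. Whether a number marks a shared chip or litter was not tested.

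Directions turned only in differences that passed no test: the interaction of Bcl2l1 probe 3 with the authors' values (0.0327) and with no background correction (0.000354), Bnip3l in males (-0.0268) and Bad in females (0.00734) under median scaling. With 1 array left out they turned for Bad by genotype (-0.00444 to 0.0433), for the sex effects of Bcl2 probe 2 (-0.00661 to 0.12) and probe 3 (-0.17 to 0.0146), of Bcl2l1 probe 1 (-0.0177 to 0.14), probe 2 (-0.16 to 0.0635) and probe 3 (-0.0858 to 0.12), of Mcl1 (-0.0132 to 0.0465) and of Bad (-0.0148 to 0.0324), for the interactions of Bcl2l1 probe 1 (-0.21 to 0.11) and probe 3 (-0.26 to 0.14), in males for Bcl2l1 probe 2 (-0.31 to 0.0408) and Bnip3l (-0.0247 to 0.0982), in females for Bad (-0.0559 to 0.0310), and for the death receptor gene Tnfrsf10b by genotype (-0.0302 to 0.0964).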
